A study of Homo sapiens with 10 samples.

Results

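The unfolded protein response (UPR) and endoplasmic reticulum (ER) folding genes were described here as 37 named genes of the 20327 genes measured in hTERT RPE-1 cells, a human retinal pigment epithelial line immortalised with telomerase. The members were chosen by function: chaperones of the ER, enzymes that form disulfide bonds, the stress sensors and their transcription factors, and the machinery of ER-associated degradation, translocation and export. All 37 were found by symbol. RNA was sequenced in 10 libraries of 2 experiments on wild-type cells held for 48 h in 0.1% serum. In the first, cells received merbarone, an inhibitor of DNA topoisomerase II, at 200 µM for 30 min, or its vehicle DMSO for 30 min (n = 3 each). In the second, cells received merbarone at 200 µM for 2 h or were left untreated, with no vehicle (n = 2 each). The question asked of the members was whether they moved within each experiment, set beside genes of the amino acid response. All libraries come from 1 cell line, and the labels do not say whether replicates were separate cultures. The p-values therefore measure only the spread between these libraries, and in such bulk RNA fewer expressing cells and less RNA per cell cannot be told apart.

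The UPR answers the build-up of misfolded protein in the ER through 3 membrane sensors, IRE1 (encoded by ERN1), PERK (EIF2AK3) and ATF6. IRE1 splices the mRNA of XBP1 into that of an active transcription factor, and ATF6 is cut to release one; together they induce chaperones, folding enzymes and degradation genes, with BiP (HSPA5) as the usual readout. PERK phosphorylates the translation factor eIF2α, which raises translation of ATF4, but the kinase GCN2 does the same when amino acids run short, so ATF4 targets alone do not name the sensor.

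The 250 bases before the annotated start are shown for the 3 members that were higher at 2 h and for HSPA5, because the ER stress elements bound by ATF6 and XBP1 lie in such regions. The sequences are from RefSeq (GRCh38.p14), 5′ to 3′ on the strand of the gene, at chr16:56931892-56932141 for HERPUD1 (plus strand), chr22:28800570-28800819 for XBP1, chr17:64130145-64130394 for ERN1 and chr9:125241344-125241593 for HSPA5 (all minus strand). Capitals mark the fixed letters of a matched motif.
HERPUD1: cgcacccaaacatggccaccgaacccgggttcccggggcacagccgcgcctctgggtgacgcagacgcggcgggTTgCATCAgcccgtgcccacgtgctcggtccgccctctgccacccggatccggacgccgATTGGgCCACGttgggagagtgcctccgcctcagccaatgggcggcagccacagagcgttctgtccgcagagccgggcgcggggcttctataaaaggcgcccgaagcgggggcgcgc
XBP1: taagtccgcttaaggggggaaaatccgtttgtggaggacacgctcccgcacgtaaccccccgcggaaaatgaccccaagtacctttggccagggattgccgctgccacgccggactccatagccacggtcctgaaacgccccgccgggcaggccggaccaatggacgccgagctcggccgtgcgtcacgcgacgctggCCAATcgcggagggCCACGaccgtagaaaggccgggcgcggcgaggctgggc
ERN1: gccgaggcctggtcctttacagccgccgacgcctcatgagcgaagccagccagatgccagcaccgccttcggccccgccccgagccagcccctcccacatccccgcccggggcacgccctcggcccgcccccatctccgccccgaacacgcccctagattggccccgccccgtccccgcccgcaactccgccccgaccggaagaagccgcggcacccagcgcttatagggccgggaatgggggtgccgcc
HSPA5: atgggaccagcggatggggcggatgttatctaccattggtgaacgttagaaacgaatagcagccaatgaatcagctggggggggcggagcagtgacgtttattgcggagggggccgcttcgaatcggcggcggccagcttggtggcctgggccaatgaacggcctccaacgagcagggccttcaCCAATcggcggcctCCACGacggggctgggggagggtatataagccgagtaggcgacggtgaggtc

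Of the 37 members, 34 had a promoter in the RefSeq table. The ER stress element ERSE, searched on both strands as CCAAT and CCACG with 9 bases of any kind between them, was present in 7 of 34 (20.6%), against 22 of all 27305 promoters (0.0806%). These were HSPA5, HSP90B1, CRELD2, CALR, CANX, ERO1B and XBP1. Its variant ERSE-II, searched as ATTGG and CCACG with 1 base of any kind between them, was present in 3 of 34 (8.82%), namely HERPUD1, HYOU1 and SDF2L1, against 0.0513% of all promoters. The UPR element TGACGTGG was found among the members only in HYOU1 (2.94% against 0.667% of all promoters), where it overlapped a match of ERSE-II. In the list of other ER genes described further on, it was found in 5 of 46 promoters (10.9%), and ERSE and ERSE-II in 0. A C/EBP-ATF response element, bound by ATF4 and searched as TGATGNAA, was found among the members only in HERPUD1, on the minus strand (2.94% against 3.19% of all promoters). The same letters were found in 4 of 34 promoters of the ATF4-branch list described further on (11.8%): CHAC1, ASNS, ATF3 and AARS1. Of the 10 members with ERSE or ERSE-II letters, 2 were called at 2 h in the tests described further on, XBP1 and HERPUD1, both higher. Of all genes tested, 13.1% were called by limma and 14% by voom. HSPA5, HSP90B1, HYOU1, SDF2L1, CRELD2, CALR, CANX and ERO1B were not called. None of the 4 motifs was found as letters in the ERN1 window. A match is a description of letters, not of binding. The ER stress motifs and the members were both chosen for that role, so these shares are a description and were not tested.

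The deposited values were RPKM (reads scaled to gene length and sequencing depth) and came from 26633780 to 38225538 reads per library in the 30 min experiment and 11956652 to 13691014 in the 2 h experiment. The intermediate filament genes VIM (560 to 1105 RPKM) and KRT18 (14.1 to 69.4 RPKM) were high. Other markers listed for such a line were lower: KRT8 (1.80 to 6.64 RPKM), KRT7 (1.38 to 4.18 RPKM) and CDH2 (1.08 to 1.67 RPKM). TERT lay at 0.0841 to 0.161 RPKM, and CDH1 did not exceed 0.00234 RPKM. Of the retinal pigment epithelium genes, OTX2 (2.35 to 4.61 RPKM), PMEL (3.68 to 5.07 RPKM), BEST1 (2.10 to 20.0 RPKM) and PAX6 (1.37 to 2.61 RPKM) were present. MITF (0.218 to 0.415 RPKM) and SERPINF1 (0.154 to 0.425 RPKM) were low, and RPE65, RLBP1, TYR, TYRP1 and TTR did not exceed 0.0656 RPKM. Markers of leukocytes, endothelium, other epithelia, glia and liver (PTPRC, CDH5, EPCAM, GFAP and ALB) did not exceed 0.127 RPKM. For 31 of the 37 members, the gene length implied by the values lay within 10% of the genomic span, so introns were included in the length. It was longer than the span for EDEM2 (162827 against 31973 bases), TXNDC5, ATF6B and DNAJB11, and shorter for EIF2AK3 (70864 against 134778 bases) and OS9. Another gene overlaps 14 members, HSP90B1, CANX and PDIA3 among them, and the strand setting of the counting is not given in the sources used here. No other gene overlaps HERPUD1, XBP1, ERN1, SEC61B or HSPA5.

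Per length, the members spanned a wide range of RPKM levels. The calcium-binding lectin chaperone CALR had the highest level, at 195 to 268 RPKM over the 10 libraries. HSPA5 followed at 47.4 to 86.4 RPKM and the disulfide isomerase P4HB at 42.3 to 54.5 RPKM. The levels of HSPA5 and P4HB overlapped across libraries. The sensors were low: ATF6 lay at 0.425 to 0.622 RPKM, EIF2AK3 at 0.368 to 0.550 RPKM and ERN1 at 0.0827 to 0.187 RPKM. The length used includes introns, so these levels do not rank transcript numbers between genes. Fold changes are differences of log2(RPKM + 1) from limma and were tested where a gene's mean over the experiment was at least 1 RPKM. A gene was called at a Benjamini-Hochberg adjusted p under 0.05 over all genes tested. The scale understates changes at low RPKM, so limma-voom on reads recovered from the RPKM steps was run beside it and tested all 37.

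**Figure D1:**
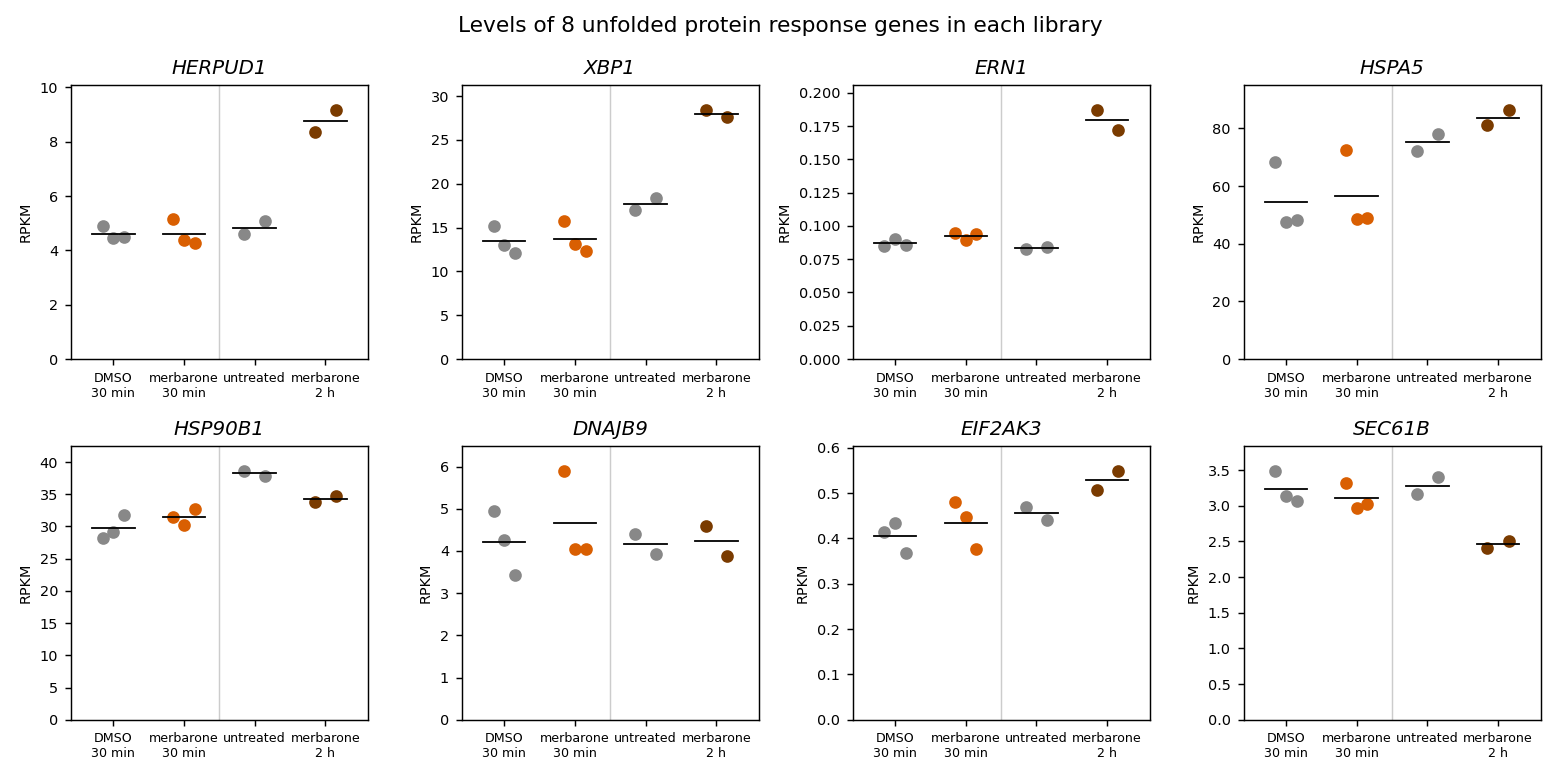
RPKM level of 8 members in each library (points) of the 4 groups, with the group mean as a line; every vertical axis starts at 0 and has its own scale. The 2 libraries after 2 h of merbarone lie above all other libraries for HERPUD1 (8.37 and 9.18 RPKM), XBP1 and ERN1, and below them for SEC61B.

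After 30 min of merbarone, no member was called. Of 32 members tested, 0 passed in either direction, against 0.0154% of all 6500 genes (1 gene), and none reached an unadjusted p of 0.05 in limma or in voom. With the replicate number as a block the count was again 0 of 32, against 0.123% of all genes, and with voom it was 0 of 37, against 0.00714%. The 32 fold changes ran from -0.06 to 0.12 with a median of 0.00, beside a median of -0.01 over all genes tested. Without the block, their 95% intervals reached no further than -0.49 and 0.55. In none of the 32 did the 3 merbarone libraries lie wholly above or below the 3 DMSO libraries, whereas this held for 2.28% of all genes (0.877% above and 1.4% below). In 20 of the 32, against 22.5% of all genes, both libraries numbered 1 lay above the other 4. The groups had to overlap in those members, so this count does not show that they were unmoved.

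HSPA5, the ER Hsp70 that also holds the sensors inactive, measured 68.3, 47.4 and 48.1 RPKM with DMSO and 72.4, 48.7 and 48.9 RPKM after 30 min of merbarone. In both groups the library numbered 1 was the high one, and the groups overlapped (log2 fold change 0.05 ± 0.21 SE, 95% interval -0.45 to 0.55). DNAJB9, an ER co-chaperone of HSPA5 and a target of XBP1, had the highest fold change, 0.12 ± 0.16 SE. It measured 4.95, 4.25 and 3.43 RPKM with DMSO and 5.90, 4.04 and 4.06 RPKM with merbarone, and the groups overlapped. XBP1 measured 15.2, 13.0 and 12.1 RPKM against 15.7, 13.1 and 12.3 RPKM, again with the highest value in the libraries numbered 1. HERPUD1 measured 4.90, 4.46 and 4.48 RPKM against 5.14, 4.40 and 4.26 RPKM (-0.01 ± 0.08 SE). The SEs and intervals here are from the fit without the replicate block, so they include the spread between replicate numbers. Compared by replicate number, HSPA5 and XBP1 were higher with merbarone in all 3 pairs, while DNAJB9 and HERPUD1 went both ways. With the replicate block, 0 of 32 members had an unadjusted p under 0.05 (limma).

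After 2 h of merbarone, 3 of 29 members tested were called (10.3%), a share below that of all genes (13.1%). Of 29 tested, HERPUD1 and XBP1 rose and SEC61B fell. That is 2 members higher, against 5.98% of all 6620 genes, and 1 lower, against 7.1% (13.1% in either direction). The 29 fold changes had a median of -0.02, beside -0.05 over all genes tested, with 10 above 0 and 19 below. Their median absolute fold change was 0.093, beside 0.132 over all genes tested. The 26 members that were not called ran from -0.32 to 0.15, with 95% intervals between -0.56 and 0.41. With voom, 3 of 37 members were higher (HERPUD1, XBP1 and ERN1), against 7.94% of 13440 genes, and 0 were lower, against 6.09%. The 2 treated libraries lay wholly above or below the 2 untreated ones in 16 of 29 members (55.2%), 5 above and 11 below, and in 61.5% of all genes tested (22.5% above and 39% below). With the replicate block 5 of 29 were called, HERPUD1 and XBP1 higher, against 12.3% of all genes, and SEC61B, SDF2L1 and CRELD2 lower, against 19.9%. Leaving out untreated replicate 1 gave 7 calls by limma, the 3 above with SDF2L1, CRELD2, MANF and DNAJB11 lower; the lone untreated library is then assumed to vary like the treated ones. In that fit 37.2% of all genes were called, above the 24.1% of the members.

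**Figure D2:**
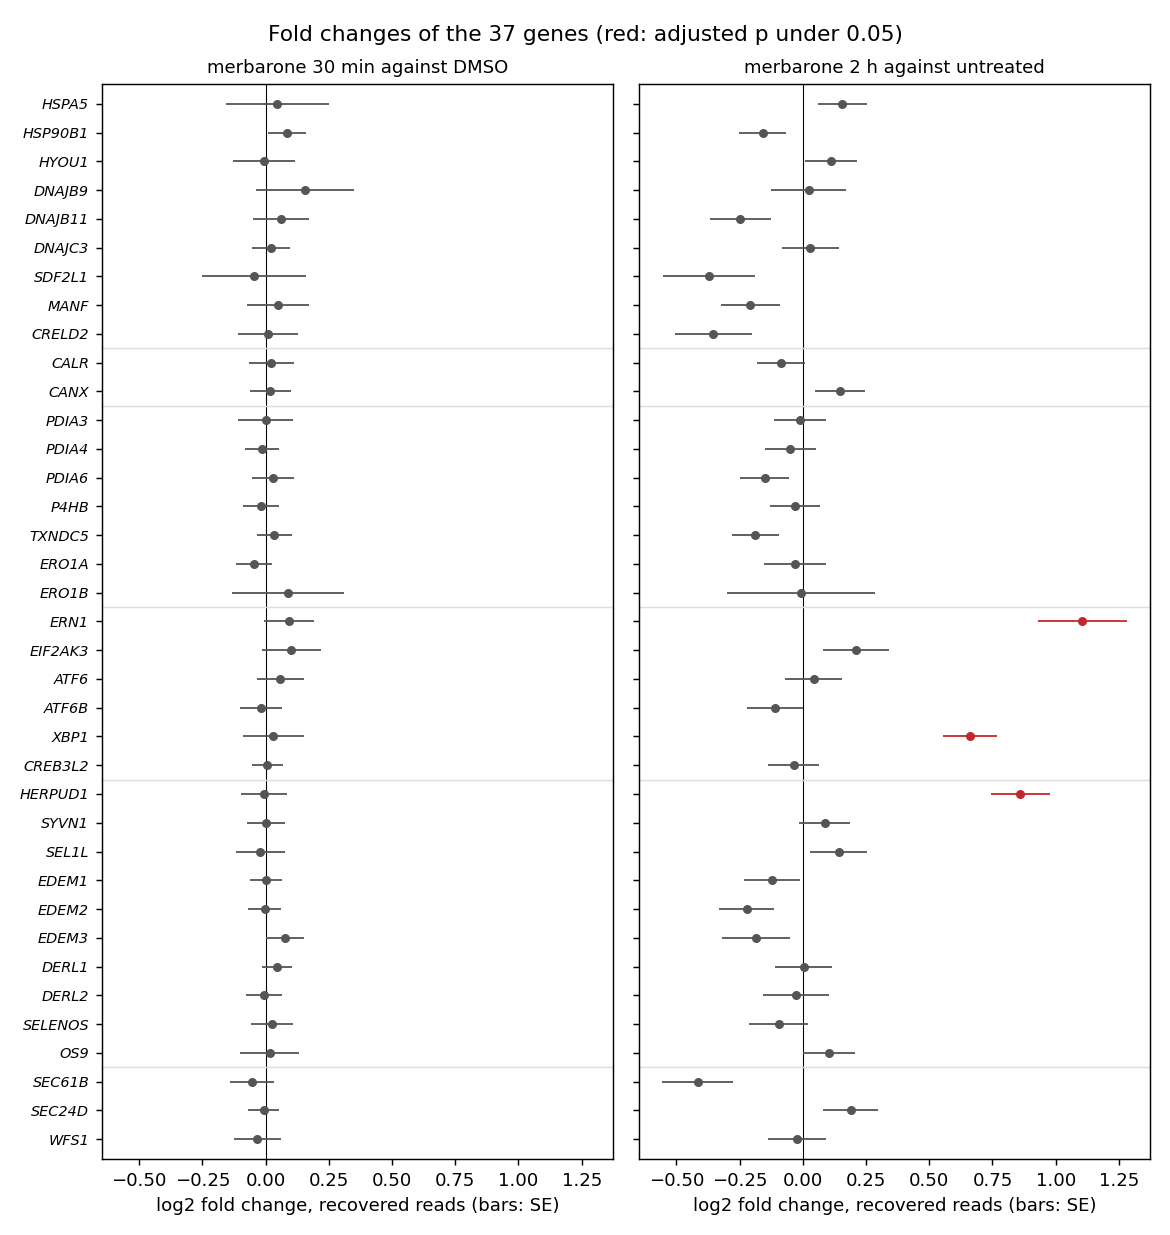
Log2 fold change of each of the 37 members from voom on the recovered reads (points) with its SE (bars), merbarone 30 min against DMSO and merbarone 2 h against untreated, ordered by role; grey lines part the roles and red marks an adjusted p under 0.05. At 30 min the points lie between -0.05 and 0.16, and at 2 h ERN1, HERPUD1 and XBP1 are red at 1.11, 0.86 and 0.66.

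HERPUD1, a membrane protein that recruits the degradation machinery and is induced by both ER stress and ATF4, rose most among the 29. On GRCh37 the gene (ENSG00000051108) lies at chr16:56966054-56978776 on the plus strand. It measured 4.59 and 5.08 RPKM in untreated cells and 8.37 and 9.18 RPKM after 2 h, and the groups did not overlap. The means were 4.84 ± 0.351 and 8.78 ± 0.567 RPKM (SD, n = 2 each), a ratio of 1.81, from 720 to 1417 reads per library. The log2 fold change was 0.74 ± 0.10 SE (limma, adjusted p = 0.00177), ranking 100 of 6620 genes from the highest, and 0.86 ± 0.12 SE with voom (adjusted p = 3.39e-05).

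XBP1, the transcription factor spliced by IRE1, rose next. The gene (ENSG00000100219, GRCh37 chr22:29190543-29196585, minus strand) measured 17.0 and 18.4 RPKM in untreated cells and 28.4 and 27.6 RPKM after 2 h, with no overlap. The means were 17.7 ± 0.966 and 28.0 ± 0.590 RPKM (SD, n = 2 each), a ratio of 1.58. The log2 fold change was 0.63 ± 0.10 SE (limma, adjusted p = 0.0059), ranking 121 of 6620. Values per gene do not separate spliced from unspliced XBP1 mRNA, so the activity of IRE1 was not measured. Without the filter on low values, 16810 genes entered the test and HERPUD1 and XBP1 both missed the threshold (limma, adjusted p = 0.0819 for each).

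ERN1, the gene of the sensor IRE1 (ENSG00000178607, GRCh37 chr17:62116440-62208179, minus strand), lay under 1 RPKM and was tested by voom. It measured 0.0827 and 0.0839 RPKM in untreated cells and 0.187 and 0.172 RPKM after 2 h, from 101 and 92 reads and from 235 and 206 reads. The treated libraries were the highest of all 10, with a ratio of means of 2.16. The voom log2 fold change was 1.11 ± 0.18 SE (95% interval 0.74 to 1.47, adjusted p = 0.000256). On the log2(RPKM + 1) scale without the filter the change was 0.12 (limma, adjusted p = 0.0648).

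The other sensors and transcription factors were not called at 2 h. EIF2AK3, the eIF2α kinase PERK, measured 0.470 and 0.441 RPKM in untreated cells and 0.507 and 0.550 RPKM after 2 h. The groups did not overlap, and the voom log2 fold change was 0.21 ± 0.13 SE (95% interval -0.06 to 0.48, adjusted p = 0.297). ATF6 measured 0.493 and 0.425 RPKM against 0.460 and 0.485 RPKM, with overlap (voom 95% interval -0.20 to 0.28, adjusted p = 0.841). Its relative ATF6B (-0.08) and the ER-bound factor CREB3L2 (-0.02) had limma adjusted p-values of 0.5 and 0.852.

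None of the 9 ER chaperones and co-chaperones outside the lectins was called at 2 h by limma (8 tested) or voom; DNAJC3, under 1 RPKM, had a voom value of 0.03. HSPA5 measured 72.1 and 78.2 RPKM in untreated cells and 81.1 and 86.4 RPKM after 2 h. The treated libraries were the higher ones without overlap, but the difference was within the error of the fit (0.15 ± 0.11 SE, 95% interval -0.10 to 0.41, limma adjusted p = 0.377). HSP90B1, the ER Hsp90, measured 38.7 and 37.9 RPKM against 33.8 and 34.8 RPKM, lower without overlap (-0.15 ± 0.10 SE, 95% interval -0.39 to 0.08, limma adjusted p = 0.342). DNAJB9 measured 4.40 and 3.92 RPKM against 4.60 and 3.89 RPKM, with overlap (0.02, 95% interval -0.20 to 0.24, limma adjusted p = 0.904). HYOU1, the exchange factor of HSPA5, had a fold change of 0.10 (limma adjusted p = 0.514).

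Several small luminal proteins of the HSPA5 network had values below 0 at 2 h without passing the test. SDF2L1, a co-factor of ER J-proteins, measured 5.74 and 6.69 RPKM in untreated cells and 4.41 and 5.19 RPKM after 2 h (-0.32 ± 0.11 SE, limma adjusted p = 0.0831). CRELD2, an ER stress-inducible folding factor, measured 2.401 and 2.90 RPKM against 1.94 and 2.19 RPKM (-0.25, limma adjusted p = 0.104). In both genes the treated libraries were the lower ones without overlap. The secreted ER factor MANF (-0.20) and the co-chaperone DNAJB11 (-0.17) had limma adjusted p-values of 0.281 and 0.18.

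The lectin chaperones CALR (-0.09) and CANX (0.14), which hold new glycoproteins, were not called. The enzymes of disulfide formation formed an even group: PDIA3, PDIA4, PDIA6, P4HB, TXNDC5 and the oxidase ERO1A all lay between -0.15 and -0.01 on the log2 scale, and none was called. ERO1B, the other oxidase, had a voom value of -0.01 at levels of 0.0440 to 0.0840 RPKM.

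HERPUD1 was the only degradation gene called at 2 h in either fit. The ubiquitin ligase SYVN1 (0.08) and its partner SEL1L (0.09), the mannosidase-like EDEM1 (-0.09), the channel genes DERL1 (0.00) and DERL2 (-0.02), SELENOS (-0.09) and the glycan-binding OS9 (0.09) stayed near 0 on the log2 scale. EDEM2 and EDEM3, under 1 RPKM, had voom values of -0.22 and -0.19. SEC61B, a subunit of the channel through which proteins enter the ER (ENSG00000106803, GRCh37 chr9:101984346-101992897, plus strand), fell. It measured 3.17 and 3.40 RPKM in untreated cells and 2.41 and 2.51 RPKM after 2 h, and its 2 treated libraries were the lowest of all 10. The log2 fold change was -0.31 ± 0.08 SE (limma, adjusted p = 0.036), but voom gave -0.42 with an adjusted p of 0.0507. Without merbarone 2 h replicate 1 the limma adjusted p was 0.357, and without replicate 2 it was 0.201. The coat subunit SEC24D (voom 0.19, adjusted p = 0.256) and WFS1 (-0.01), an ER membrane protein, were not called.

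**Figure D3:**
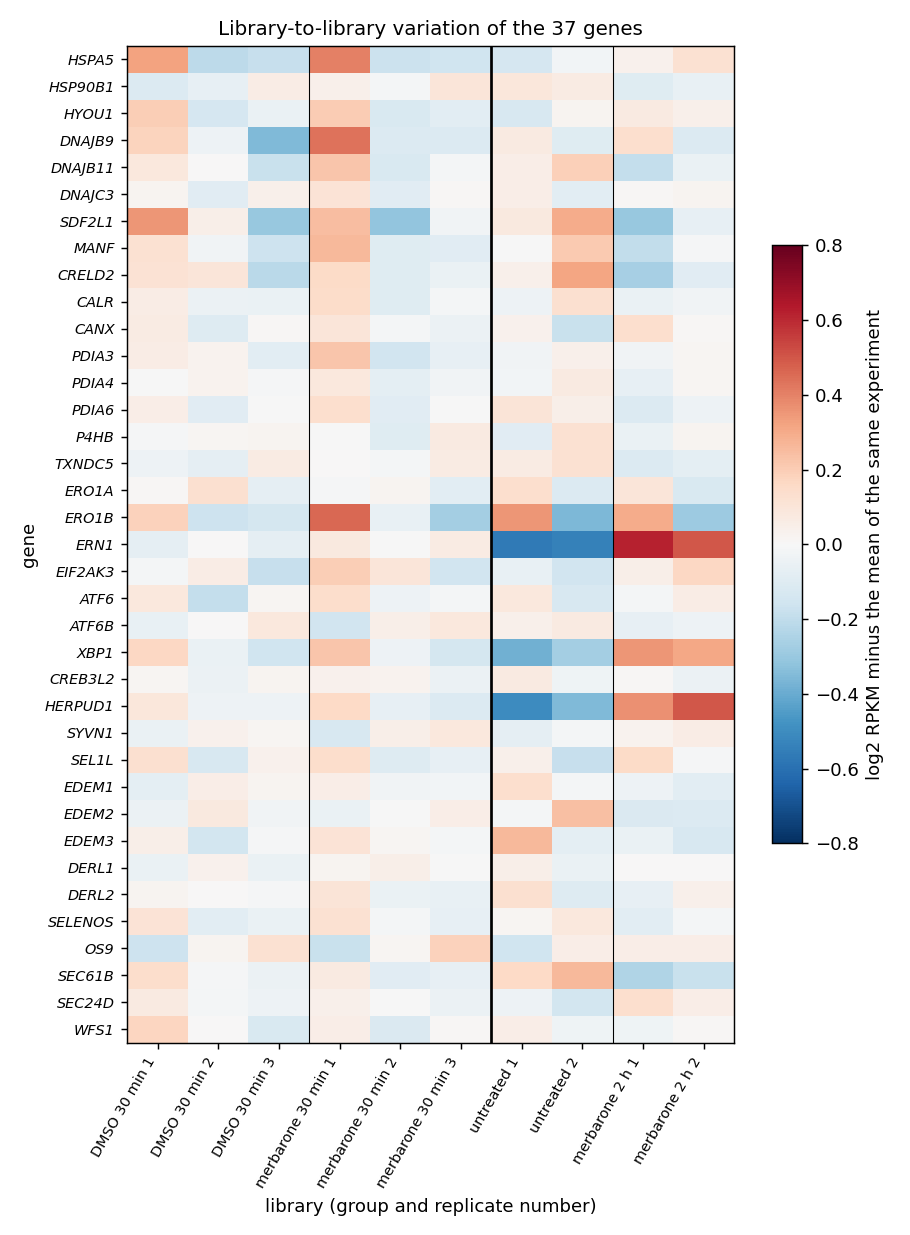
Log2 RPKM of each of the 37 members in each library minus its mean over the libraries of the same experiment (colour), members ordered by role and libraries by group and replicate number. HERPUD1, XBP1 and ERN1 change colour between untreated and treated libraries of the 2 h experiment, and HSPA5 is high in the libraries numbered 1 of both 30 min groups (68.3 and 72.4 RPKM).

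The members were set beside 58 further ER folding, translocation and degradation genes and 40 genes of the ATF4 branch and the amino acid response. Members and lists were chosen with earlier results of these data known. At 30 min, 0 of 47 tested ER genes and 0 of 30 tested ATF4-branch genes were called by limma, against 0.0154% of all genes. Their medians were 0.01 and 0.00. ATF3, a stress-induced transcription factor of the ATF4 branch, lay under the filter there. It measured 0.0487, 0.0517 and 0.0491 RPKM with DMSO and 0.359, 0.460 and 0.158 RPKM after 30 min of merbarone, higher without overlap, with a ratio of means of 6.54. With voom and the replicate block it rose by 2.64 ± 0.21 SE on the log2 scale (adjusted p = 0.000989), and it was the only gene of the list called in that fit. Without the block the voom value was 2.58 ± 0.55 SE (adjusted p = 1.00), or 3.03 (adjusted p = 0.0441) without merbarone 30 min replicate 3. At 2 h, 0 of 46 tested ER genes rose, against 5.98% of all genes, and 1 fell, against 7.1%, with a median of -0.06. The gene that fell was SSR2, a subunit of the translocon-associated complex, with means of 17.6 ± 1.65 and 12.4 ± 0.393 RPKM (SD, n = 2 each) and a log2 fold change of -0.47 (limma, adjusted p = 0.0231). The SSR2 call was lost in 3 of 14 alternatives, among them the fit without the filter on low values. The SSR2 fold change over the alternatives ran from -0.56 to -0.35. Leaving out a library of the 2 h experiment leaves 1 in its group, and the count of ER genes called then moved both ways. Of the ATF4-branch genes, 20 of 33 tested rose and 0 fell, against 5.98% and 7.1% of all genes, with a median of 0.61. With voom 26 of 40 were higher, against 7.94% of all genes. In 30 of these 33 (90.9%) the treated libraries did not overlap the untreated ones, against 61.5% of all genes. CHAC1, ATF3, SESN2 and ASNS averaged 0.448, 0.108, 0.818 and 0.840 RPKM in untreated cells, so they passed the filter only through the treated libraries. The filter thus favoured genes that rose, which raises these limma shares and the median. Without it, the limma median over the 40 genes of the list was 0.37.

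CHAC1, which degrades glutathione, and DDIT4, an inhibitor of mTORC1, had the largest changes of the ATF4-branch list on the log2(RPKM + 1) scale; with voom CHAC1 (5.86) was followed by ATF3 (4.63), GDF15 (3.57) and then DDIT4 (3.03). CHAC1 went from 0.448 ± 0.0657 to 26.7 ± 4.23 RPKM (SD, n = 2 each), a log2 fold change of 4.25 (limma, adjusted p = 1.30e-07), and DDIT4 rose by 2.98 (adjusted p = 7.48e-06). SESN2, a leucine sensor that restrains mTORC1, rose by 2.05 (2.99 with voom). ATF3 rose by 1.73 on this scale and by 4.63 with voom, from 0.108 ± 0.0203 to 2.69 ± 0.642 RPKM (SD, n = 2 each). Asparagine synthetase, ASNS, rose by 1.26 (limma, adjusted p = 0.0001) and by 2.02 with voom. DDIT3, encoding the factor CHOP that both PERK and GCN2 induce through ATF4, went from 7.90 ± 0.946 to 34.2 ± 3.19 RPKM (SD, n = 2 each), a log2 fold change of 1.98 (limma, adjusted p = 1.74e-05). It overlaps MARS1 and MBD6, so its reads are uncertain. PPP1R15A, the eIF2α phosphatase subunit GADD34, rose by 1.24 (limma, adjusted p = 0.000166) and the pseudokinase TRIB3 by 0.61 (adjusted p = 0.00504), or 0.95 with voom. ATF4 itself, regulated mainly in translation, measured 49.4 ± 5.46 and 63.0 ± 4.32 RPKM (SD, n = 2 each), with a log2 fold change of 0.35 (adjusted p = 0.0962 by limma and 0.0357 by voom).

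**Figure D4:**
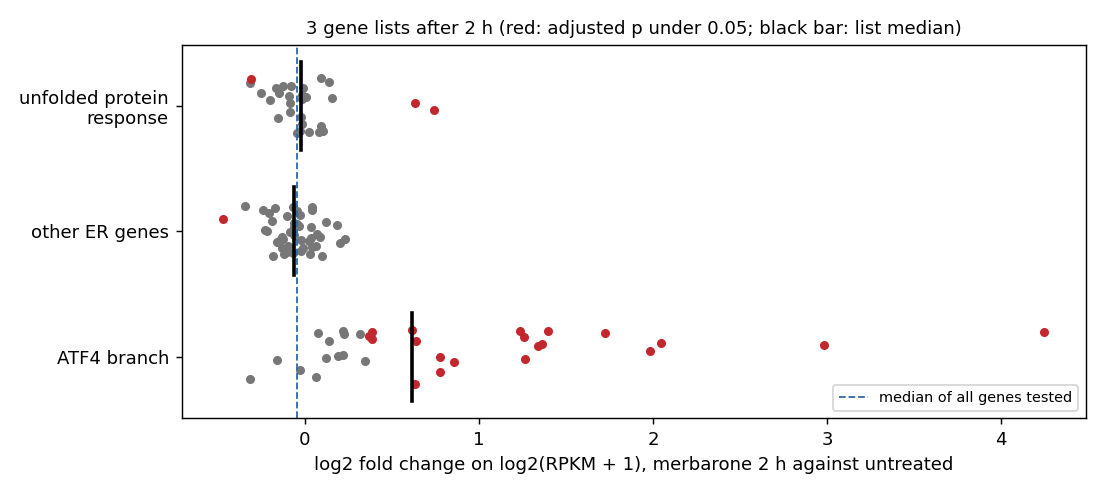
Log2 fold change at 2 h on the log2(RPKM + 1) scale of every tested gene (points; red, adjusted p under 0.05) of 3 gene lists, with the list median as a black bar and the median of all genes tested as a dashed line. The ATF4 branch has a median of 0.61, and the UPR members and the other ER genes have medians of -0.02 and -0.06. Genes entered on their mean over both groups, so some of the ATF4 branch entered only through the treated libraries.

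The effect at 2 h was compared with the effect at 30 min in 1 fit over the 10 libraries. Among 30 members tested, HERPUD1 differed, with an effect larger at 2 h by 0.75 ± 0.12 SE (limma, adjusted p = 0.0178), against 1.27% of all 6558 genes. No other member was called, and 0 were lower, against 0.366% (1.63% in either direction). Leaving out merbarone 30 min replicate 2, either untreated library or either library treated for 2 h each moved this adjusted p above the threshold, to between 0.0503 and 0.114. With the replicate block 3 members were called, HERPUD1, XBP1 (0.61, adjusted p = 0.00328, against 0.119 without the block) and SEC61B (-0.26, adjusted p = 0.0215). All genes gave 7.69% higher and 11.5% lower under the block. With voom 2 of 37 were called, HERPUD1 (0.87, adjusted p = 0.0426) and ERN1 (1.01 ± 0.17 SE, adjusted p = 0.0404), both higher, against 0.439% of all genes. Under voom the count was 0 on leaving out any library but merbarone 30 min replicate 1, where it was 1. The ERN1 call was lost on leaving out any 1 of the 10 libraries (voom, adjusted p = 0.0689 to 0.224). Among the ATF4-branch genes 12 of 33 had a larger effect at 2 h (7 without merbarone 2 h replicate 2), and among the other ER genes 0 of 46. The filter again took the mean over all groups of the fit. The experiments also differ in their controls and depth, so time cannot be told apart from them.

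Within the 30 min experiment the members varied more by replicate number than by treatment. In 20 of 32 members (62.5%) both libraries numbered 1 lay above the other 4, against 22.5% of all genes tested. HSPA5, with 68.3 and 72.4 RPKM in these libraries and at most 48.9 RPKM in the other 4, shows the pattern. The control levels also differed between experiments. In 22 of 30 members (73.3%) the 3 DMSO libraries did not overlap the 2 untreated ones, 16 with DMSO higher and 6 lower, against 59% of all genes. HYOU1 lay at 20.1 to 25.3 RPKM with DMSO and 13.2 and 14.7 RPKM untreated, and HSP90B1 lay the other way, at 28.3 to 31.8 and at 38.7 and 37.9 RPKM. Vehicle and experiment cannot be told apart in these values.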

How the data were processed

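Each library came as the authors' deposited list of Ensembl genes with RPKM values, not logged and not pooled. Bowtie 1.2.0, DESeq2, edgeR, deepTools 2.4.1 and the builds hg19 and GRCh37 are named in the submitters' processing notes, with no role given; the read counter is not given in the sources used here. Symbols matched 19637 of 20327 genes. The implied gene length lay within 1% of the genomic span for 74.9% of 17234 genes.

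Values were tested as log2(RPKM + 1) with limma 3.58.1 (R 4.3.3, moderated with a trend), separately in each experiment, keeping those whose mean reached 1 RPKM, with Benjamini-Hochberg adjustment over all genes tested and a threshold of 0.05. Reads were recovered from the RPKM steps: values of all 17680 genes detected came out whole within 0.01 reads, and voom was run over those averaging 10 reads or more. Replicate correlations of the logged values were 0.982 to 0.996. In the 30 min experiment, deviations from the group means correlated between libraries of the same number (r = 0.925, 0.646 and 0.605). Between different numbers r was 0.365 (DMSO 2 with merbarone 3), 0.139 (DMSO 3 with merbarone 2) and otherwise below 0. The numbers were taken to pair the libraries there, less clearly for 2 and 3 than for 1.

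The members and lists were chosen with earlier results of these data known. All members were named; of the comparison lists, the called genes with the 5 largest fold changes at 2 h were named, with ATF4, DDIT3, TRIB3, CHAC1, ASNS and PPP1R15A. GDF15 was named after its values were seen. Alternatives were a pseudocount of 0.1, no filter, a filter at 5 RPKM, median and quantile scaling, no trend, the replicate block, voom, 1 fit over 10 libraries and leaving out each library. Leaving out libraries under voom was added after seeing the data. The fits were also run on simulated reads that had no replicate effect and larger changes than most described here, so that run does not bear on small effects. Promoters (GRCh38.p14) were used for letters only, and gene coordinates are on GRCh37.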

Additional observations from a re-analysis of the deposited data

Results flagged for a closer look

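HERPUD1 had an effect of merbarone that differed between the experiments, larger by 0.75 on the log2(RPKM + 1) scale at 2 h than at 30 min (limma, Benjamini-Hochberg adjusted p = 0.0178). ERN1 had an effect larger by 1.01 on the log2 scale at 2 h (limma-voom, adjusted p = 0.0404). Dose was the same in both experiments, while control and depth differed. The call for ERN1 was lost on leaving out any 1 library.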

How the results depend on the processing

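No value changed sign among those called. At 30 min the members' count of 0 held under every alternative run. Of 2058 recomputed values of single genes, 1983 kept their side of the threshold, 156 of them uncalled values with the other sign; 48 lost the call and 27 gained it.

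Members called at 2 h (3) numbered 0 without the filter, 2 to 7 on leaving out each library (limma) and 3 to 11 with voom, both maxima without untreated replicate 1, where 37.2% (limma) and 30.6% (voom) of all genes were called, beside 24.1% and 29.7% of the members. With the replicate block they numbered 5, and 5 with block and voom; only 2 pairs exist there (r = 0.300), with 1 residual degree of freedom. Median and quantile scaling left 2 members higher and 1 lower. Among all calls the higher share was 45.7%, 52.4% with median and 53.8% with quantile scaling.

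Members whose effects differed between experiments (1) numbered 2 without the filter, 2 with voom, 3 with the replicate block, 5 with block and voom, and 0 to 1 on leaving out a library.

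ATF4-branch calls at 2 h (20) numbered 5 without the filter, 12 at a mean of at least 5 RPKM, and 14 to 24 (limma) or 20 to 31 (voom) on leaving out a library. Their differing effects (12) numbered 4 at 5 RPKM, 23 with the block, 26 with block and voom, 7 to 13 on leaving out a library with limma and 3 to 12 with voom, among them 6 without merbarone 2 h replicate 2 and 7 without DMSO replicate 3, merbarone 30 min replicate 2 or 3. At 30 min (0) they numbered 1 (ATF3) with block and voom, and 0 to 1 on leaving out a library. At 2 h the block gave 25 ATF4-branch genes higher and 1 lower, and block with voom gave 28 higher and 1 lower. The fit over 10 libraries gave 17 higher and 1 lower at 2 h.

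Other ER genes called at 2 h (1) numbered 0 without the filter, 4 with the block, 8 with block and voom, 0 to 9 on leaving out a library with limma and 0 to 10 with voom. Their differing effects (0) numbered 2 with the block and 3 with block and voom. Of all genes tested, 13.1% were called at 2 h, 0.315% without the filter and 17.8% at 5 RPKM. The share was 32.2% with the block and 25.9% with block and voom. Differing effects were called in 1.63% of all genes, 19.1% with the block and 15.1% with block and voom. The cause of these shifts was not tested. The reads behind ERN1 (92 to 235 at 2 h) limit its precision.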
